A study of Homo sapiens with 4 samples.

Results

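The loci of 5 cyclin-dependent kinase (CDK) inhibitor genes, CDKN2A, CDKN2B, CDKN1A, CDKN1B and CDKN2C, were examined for histone H3 trimethylated at lysine 27 (H3K27me3). The genes were taken by name and their peaks by position, in 4 windows of 46 to 190 kb on human genome build hg19. CDKN2A and CDKN2B share the window on chromosome 9 from 21940001 to 22130000. The others were chromosome 6 from 36624001 to 36676000 for CDKN1A, chromosome 12 from 12850001 to 12896000 for CDKN1B and chromosome 1 from 51406001 to 51461000 for CDKN2C. Of the 13155 peaks of the AKBA list and the 8890 peaks of the DMSO list, 0 and 0 overlapped any of the 4 windows.

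The cells were HaCaT, an immortalised line of human keratinocytes, and the mark was mapped by sequencing of immunoprecipitated chromatin. The treated cells were cultured for 12 hours with AKBA and the control cells for the same time with the solvent DMSO, and no genetic change beyond the line itself is named. AKBA commonly stands for an acetylated boswellic acid of frankincense resin, which the labels do not spell out, and they give no dose. Each condition had 1 H3K27me3 library with a peak list and 1 input DNA library that was not used here. Differences could therefore not be set against a spread between replicates, and no test was made. A peak list records no read numbers, so the depth behind it is unknown, and a locus without a called peak may carry the mark below the caller's threshold.

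CDK inhibitors slow the cell cycle by binding the kinases that drive it. The INK4 proteins, among them p16INK4A from CDKN2A and the products of CDKN2B and CDKN2C, bind CDK4 and CDK6. The CIP/KIP proteins encoded by CDKN1A and CDKN1B act on cyclin-CDK complexes more broadly. Polycomb repressive complexes lay down and bind H3K27me3, and the CDKN2A and CDKN2B region is a textbook target of theirs in proliferating fibroblasts, where loss of the mark accompanies senescence. The antisense RNA gene CDKN2B-AS1, also called ANRIL, runs through that region. In mammals, Polycomb complexes are mostly found at CpG-rich promoters, so the CpG content of the promoters is given here.

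The 5 genes all had an entry in the RefSeq promoter table, with 8 starts in total. These sequences and their coordinates are those of assembly GRCh38.p14 and were not set against the hg19 peaks. In the 250 bases before the start, all 5 genes had a start richer in CpG dinucleotides than the median of the table. That median was 11 CpG over 35114 promoters. CDKN2A had 24 CpG before its upstream start, which serves the ARF protein, and 20 before its downstream start, which serves p16INK4A. At least 24 CpG were found in 23.7% of all promoters and at least 20 in 32.4%. CDKN2B had 18 CpG, a number reached by 36.8% of promoters, which was the lowest of the 5 genes when each is taken at its CpG-richest start. CDKN1A and CDKN1B had 27 each, reached by 17.7%. CDKN2C had 35 at its CpG-richest start, reached by 5.80%, and 10 and 7 at the other 2 starts. A CpG here is the letters CG, counted on the printed strand, and since CG reads the same on the other strand the number holds for both. The sequences of the 3 starts of the chromosome 9 region and of the CpG-richest start follow, because these are the kind of promoter at which the mark is usually sought. They run 5′ to 3′ and end at the base before the start, and the capitals mark each CpG.
CDKN2A, ARF start (chr9:21995325-21995574, minus strand): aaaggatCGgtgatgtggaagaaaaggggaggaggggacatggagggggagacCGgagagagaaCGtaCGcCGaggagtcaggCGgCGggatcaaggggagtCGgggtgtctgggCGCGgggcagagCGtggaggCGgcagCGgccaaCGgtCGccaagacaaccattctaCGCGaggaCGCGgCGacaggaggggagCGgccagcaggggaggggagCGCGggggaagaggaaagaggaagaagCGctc
CDKN2A, p16INK4A start (chr9:21974858-21975107, minus strand): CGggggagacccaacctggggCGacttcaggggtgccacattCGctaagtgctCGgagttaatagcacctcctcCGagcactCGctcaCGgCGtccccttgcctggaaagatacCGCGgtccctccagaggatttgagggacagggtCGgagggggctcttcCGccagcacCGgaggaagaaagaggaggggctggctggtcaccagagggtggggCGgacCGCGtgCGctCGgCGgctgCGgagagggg
CDKN2B (chr9:22009306-22009555, minus strand): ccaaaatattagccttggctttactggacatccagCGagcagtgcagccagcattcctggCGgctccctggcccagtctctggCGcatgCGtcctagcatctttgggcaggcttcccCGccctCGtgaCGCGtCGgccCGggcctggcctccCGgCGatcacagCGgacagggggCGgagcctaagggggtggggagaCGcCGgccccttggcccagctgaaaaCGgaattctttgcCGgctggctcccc
CDKN2C (chr1:50968456-50968705, plus strand): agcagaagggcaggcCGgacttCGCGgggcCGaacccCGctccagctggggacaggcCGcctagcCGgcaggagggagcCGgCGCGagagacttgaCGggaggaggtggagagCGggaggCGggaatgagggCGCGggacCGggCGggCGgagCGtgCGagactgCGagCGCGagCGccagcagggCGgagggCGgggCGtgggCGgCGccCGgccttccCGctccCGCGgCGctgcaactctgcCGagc

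**Figure D1:**
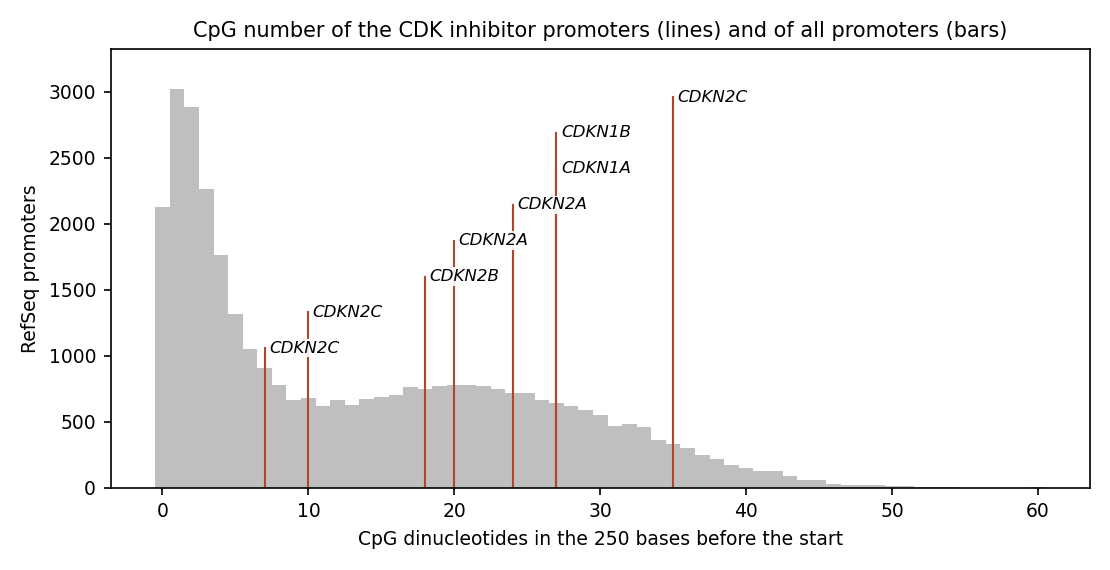
Number of CpG dinucleotides in the 250 bases before a start (horizontal axis) and number of RefSeq promoters of GRCh38.p14 with that number (vertical axis, grey bars). Red lines mark the 8 starts of the CDK inhibitor genes, whose heights only separate the names. Of these starts, 6 lie between 18 and 35 CpG, above the median of 11, and 2 starts of CDKN2C lie at 10 and 7.

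The first comparison asked whether a called H3K27me3 peak was present at these loci with or without AKBA. None of the 4 windows held a peak in either condition, so AKBA and DMSO peaks each covered 0 bp of them. A window of this size without a peak was the usual state of the genome. The chromosomes were divided, between their first and last peak, into tiles of the same width as each window. Of 15392 tiles of 190 kb, the width of the CDKN2A and CDKN2B window, 30.7% held an AKBA peak and 24.5% a DMSO peak. At 52 kb, the width for CDKN1A, 13.3% of tiles held an AKBA peak and 9.54% a DMSO peak. At 46 kb, the width for CDKN1B, the shares were 12.2% for AKBA and 8.69% for DMSO. At 55 kb, the width for CDKN2C, they were 13.8% for AKBA and 10.0% for DMSO. On the windows' own chromosomes the shares were similar. Among 741 tiles of chromosome 9, for example, 31.2% held an AKBA peak and 25.2% a DMSO peak. That share pools both sides of the chromosome's longest peak-free stretch. The side with the window held 1.39 AKBA and 1.02 DMSO peaks per Mb, and the other side 10.0 and 6.98 per Mb. The share of tiles with a peak was not computed for the window's side alone. Set against all tiles, the absence of peaks at the 4 windows is therefore near the background of these lists and gives no result particular to these loci. The input libraries were not used, so the amount of DNA at the windows and on either side of chromosome 9 was not examined. The tiles include stretches of at least 3 Mb without a peak, and a background of promoters or genes alone was not analysed here.

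**Figure D2:**
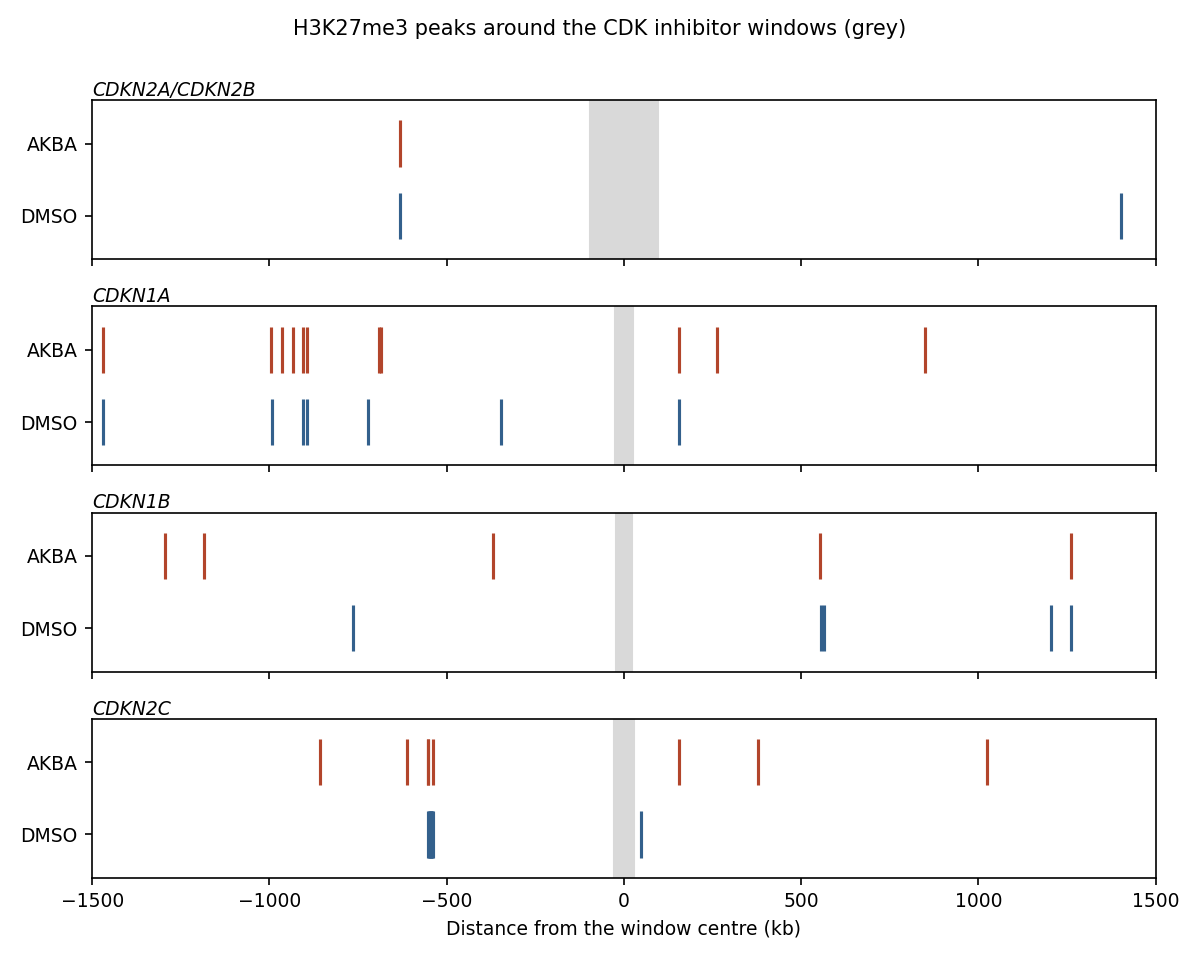
Called H3K27me3 peaks within 1500 kb of the centre of each window (horizontal axis, distance from the centre in kb), with the AKBA list above the DMSO list in each panel. Each tick marks the start of a peak and is not drawn to the peak's width. The grey windows hold no tick, and the DMSO tick 21.7 kb to the right of the CDKN2C window is the nearest to any of them.

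The second comparison asked how far the nearest called peaks lay. Left means toward lower coordinates, and distances run from the edge of the window. The chromosome 9 window lay 537 kb from an AKBA peak and 537 kb from a DMSO peak. The CDKN1A window lay 130 kb from an AKBA peak and 130 kb from a DMSO peak. The CDKN1B window lay 347 kb from an AKBA peak and 532 kb from a DMSO peak, and the CDKN2C window 128 kb from an AKBA peak and 21.7 kb from a DMSO peak. The direction of the difference was thus not shared by the loci. AKBA peaks were nearer at CDKN1B, DMSO peaks were nearer at CDKN2C, and the peaks nearest to the other 2 windows occupied overlapping positions in both lists. These distances depended on the peaks kept. With a score of at least 3, the nearest AKBA and DMSO peaks were 1162 and 532 kb from CDKN1B, 128 and 512 kb from CDKN2C, and 130 and 868 kb from CDKN1A, so both directions turned and the CDKN1A window was no longer alike in the lists. With peaks of at least 1 kb AKBA was still nearer at CDKN1B, at 531 kb against 1237 kb for DMSO, and both were 509 kb from CDKN2C. The CDKN2A and CDKN2B window was then 1700 kb from an AKBA peak and 7084 kb from a DMSO peak.

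**Figure D3:**
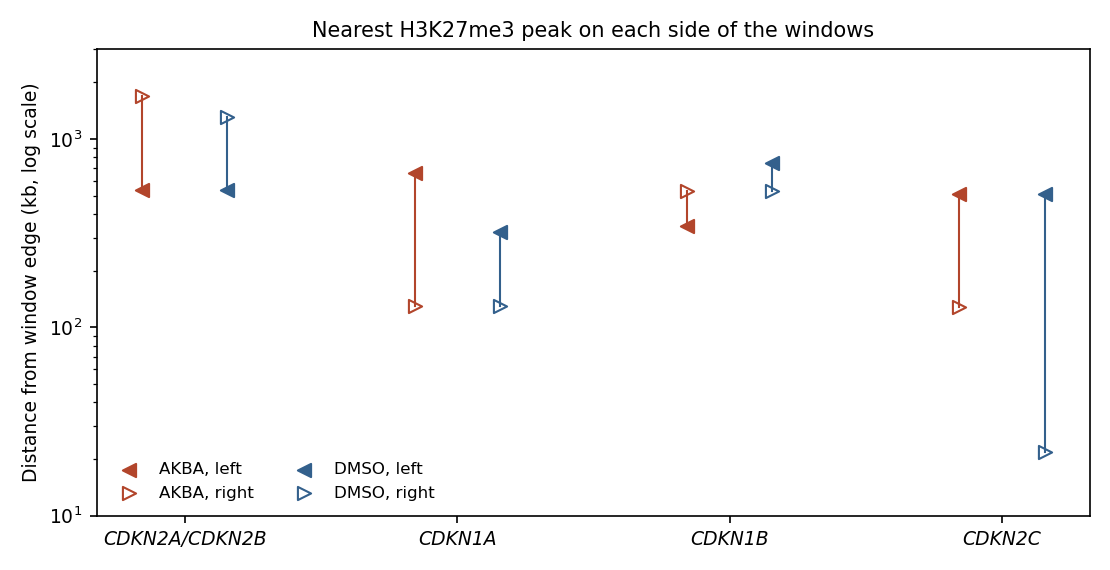
Distance in kb from the window's edge to the nearest peak (vertical axis, log scale) for each window, with the AKBA list left of the DMSO list. Filled triangles stand for the peak at lower coordinates and open triangles for the peak at higher coordinates. The nearest peak of the CDKN2A/CDKN2B window is at 537 kb in both lists, and that of CDKN2C at 128 kb (AKBA) and 21.7 kb (DMSO).

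With all peaks of each list counted, the distances of the windows fell within the ordinary range of the tiles. The distances with a score of at least 3 or with peaks of at least 1 kb were not set against tiles. The median distance of a tile of 190 kb to its nearest peak was 136 kb for AKBA and 210 kb for DMSO peaks, with tiles that hold a peak counted as 0. At least as far from a peak as the CDKN2A and CDKN2B window were 25.4% of tiles for AKBA and 31.0% for DMSO. For CDKN1A the shares were 59.3% for AKBA and 65.9% for DMSO. For CDKN1B they were 38.3% for AKBA and 34.4% for DMSO, and for CDKN2C 59.3% for AKBA and 84.7% for DMSO. The window at CDKN2C was thus closer to a DMSO peak than most tiles, and at least 25.4% of tiles were as far from a peak as any of the 4 windows, with all peaks of each list counted. These shares describe the 2 lists and test nothing about AKBA.

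**Figure D4:**
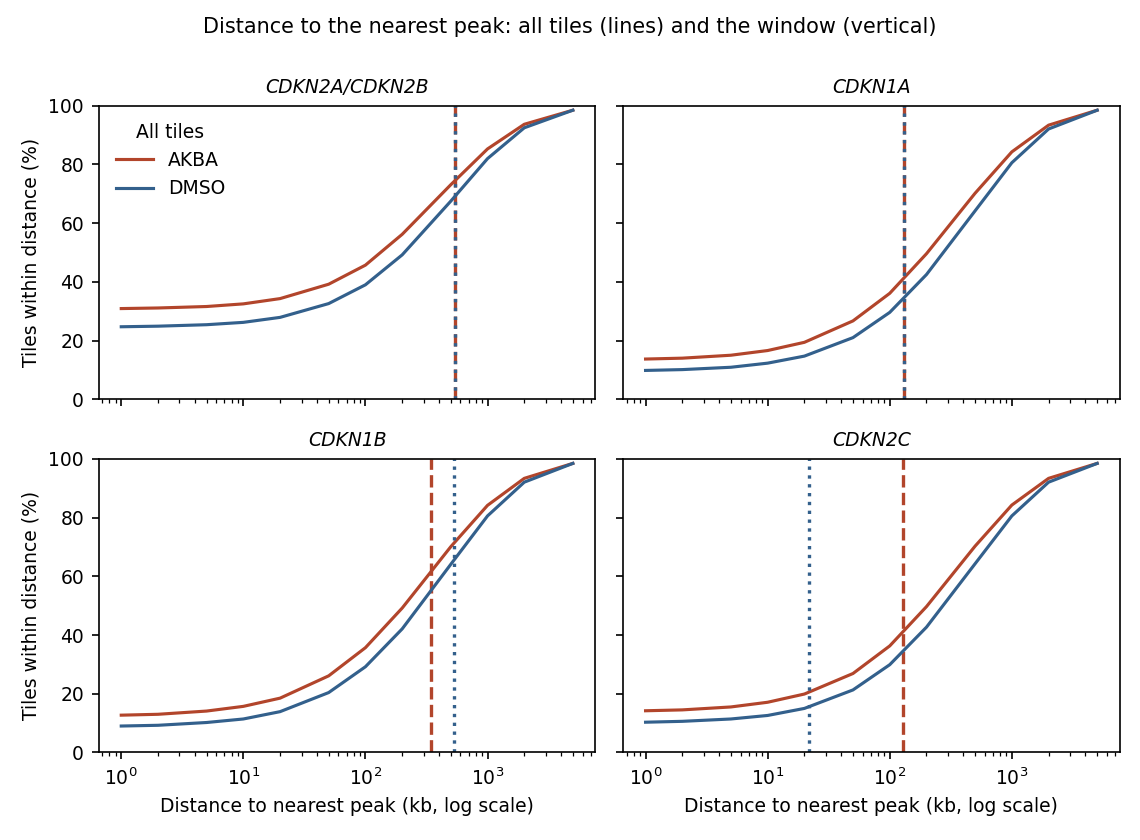
Share of all genome tiles of a window's width (vertical axis, percent) that lie within a given distance of a peak (horizontal axis, kb, log scale), for the AKBA list in red and the DMSO list in blue. Vertical lines give the window's own distance, dashed for AKBA and dotted for DMSO. The CDKN2A/CDKN2B lines coincide at 537 kb, and the CDKN2C lines stand at 128 kb (AKBA) and 21.7 kb (DMSO).

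Among the INK4 genes, CDKN2A encodes p16INK4A, an inhibitor of CDK4 and CDK6, and in another reading frame ARF, which stabilises p53. Its neighbour CDKN2B encodes p15INK4B, an inhibitor of the same kinases that is induced by TGF-beta. Their window lay in a peak-free stretch of 2427 kb in the AKBA list, from 21403119 to 23830049 on chromosome 9, and of 2034 kb in the DMSO list, from 21403322 to 23437541. That stretch ranked 10th in length of 809 such stretches on the chromosome in the AKBA list and 10th of 565 with DMSO. An empty window of 190 kb can lie only in a stretch at least that long. The median stretch of the whole list was 27.3 kb for AKBA and 40.2 kb for DMSO. A high rank was thus partly fixed by the absence of peaks in the window. The peak at its left end was called in both conditions. The AKBA peak from 21402332 to 21403118 measured 787 bp and had a score of 4.15, and the DMSO peak from 21402520 to 21403321 measured 802 bp and had a score of 3.73. The score is a value that the authors gave each peak, in a unit that is not stated. It was therefore ranked within a list, and ranks in lists of different length do not show a change. Only the setting with a score of at least 3 applied the same cutoff to both lists, and whether their scores are comparable is unknown. The peaks stood at percentile 79.4 of the AKBA scores and 74.9 of the DMSO scores, and they shared 599 bp. On the right the next AKBA peak, of 2585 bp, began 1700 kb away at 23830050 and overlapped a DMSO peak by 424 bp. The next DMSO peak was another one, of 794 bp, which began 1308 kb away at 23437542 and overlapped no AKBA peak. Within 5 Mb of the window there were 10 AKBA and 9 DMSO peaks, against medians of 30 and 21 over all tiles. Around 18.3% of tiles there were as few or fewer AKBA peaks, and around 23.6% as few or fewer DMSO peaks. Peaks were sparse on the whole of that side of chromosome 9. Between the first peak and the longest peak-free stretch of the chromosome, which begins at 45352407, the AKBA list held 63 peaks, or 1.39 per Mb, and the DMSO list 46, or 1.02 per Mb. Beyond that stretch, which ends at 66486270, the densities were 10.0 per Mb for AKBA and 6.98 per Mb for DMSO. The part of this low density in the missing peaks at CDKN2A and CDKN2B was not tested. In the RefSeq gene order the protein-coding neighbours of the pair are MTAP on the left and DMRTA1 and ELAVL2 on the right, and the peaks were not placed on genes.

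CDKN2C encodes p18INK4C, another inhibitor of CDK4 and CDK6. Its window had the nearest peak of all, and that peak was called with DMSO alone. The DMSO peak on chromosome 1 from 51482745 to 51483080 lay 21.7 kb to the right, measured 336 bp and had a score of 2.45, at percentile 18.8 of its list. It did not overlap an AKBA peak, and the closest AKBA peak was 106 kb from it. That AKBA peak, from 51588730 to 51588943, had the narrowest width of its list, 214 bp, and a score of 3.12 at percentile 54.9. By width the DMSO peak stood at percentile 31.5 of its list and the AKBA peak at percentile 3.85. Of the AKBA peaks with no DMSO overlap within 1 Mb of this window, the other 5 measured between 214 and 565 bp.

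On the left of CDKN2C both lists held a broad marked domain about 509 kb away. The AKBA peak from 50880705 to 50894074 spanned 13370 bp, the 7th widest of its list, with a score of 5.27. In the DMSO list 6 separate peaks of 801 to 2175 bp lay inside it and covered 64.6% of it, with scores of 2.56 to 5.59. The next peak of the domain was again present in both conditions, from 50895406 to 50897456 with AKBA and from 50896008 to 50897160 with DMSO, with widths of 2051 and 1153 bp. The 5 gaps between the 6 DMSO peaks ranged from 695 to 966 bp, and 3 of them fell under 857 bp, below which no 2 AKBA peaks stay apart. The part of the joining of peaks in this contrast was not tested. In RefSeq order the coding genes to the left of CDKN2C are FAF1, DMRTA2 and ELAVL4, and the peaks of the domain were not placed on genes. With 8 peaks in each list within 1 Mb of the window, the covered length was 17.3 kb for AKBA and 10.1 kb for DMSO, beside 14.7 Mb for AKBA and 7.57 Mb for DMSO over the whole lists.

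Among the CIP/KIP genes, CDKN1A is a direct target of p53 and encodes p21, which arrests cells after DNA damage. Its nearest peak lay on the right and was called in both conditions. The AKBA peak on chromosome 6 from 36805810 to 36808814 measured 3005 bp with a score of 4.84, at percentile 88.1 of its list. The DMSO peak from 36806240 to 36808081 measured 1842 bp with a score of 2.63, at percentile 30.0, and lay wholly inside the AKBA peak. The AKBA peak was thus the wider of the pair, as 1 library against 1. On the left the lists differed in position. The next AKBA peak, from 35964906 to 35965801, was 658 kb away, and the next DMSO peak, from 36302002 to 36302888, was 321 kb away, with no overlap between the lists at either. The scores of these left peaks were low in their lists, at percentile 14.6 for AKBA and 19.6 for DMSO. Within 1 Mb there were 10 AKBA and 6 DMSO peaks, and 4 of each overlapped the other list. The medians over all tiles were 5 and 3, and 72.0% of tiles held no more AKBA peaks within 1 Mb and 69.5% no more DMSO peaks.

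CDKN1B encodes p27, which holds cells in quiescence and is controlled largely at the level of protein stability. Within 1 Mb of its window there were 2 AKBA and 3 DMSO peaks, against medians of 5 and 3 over all tiles. Within 5 Mb there were 12 AKBA and 9 DMSO peaks, against medians of 30 and 21. As few or fewer were found around 23.3% of tiles for AKBA and 24.1% for DMSO, so the surroundings were sparser than usual at this scale but not extreme. The peak-free stretch around the window was 924 kb long with AKBA and 1320 kb with DMSO. It was shorter with AKBA because of 1 peak on the left, from 12502778 to 12503261 on chromosome 12, which measured 484 bp with a score of 2.90 and lay 395 kb from any DMSO peak. The nearest DMSO peak on the left, from 12107317 to 12107984, lay 742 kb from the window and measured 668 bp, with a score of 2.15 at percentile 2.55 of its list. On the right both lists had a peak at the same place. The AKBA peak from 13427318 to 13428856 measured 1539 bp with a score of 2.25, at percentile 10.8, and it contained the DMSO peak from 13428381 to 13428604, of 224 bp with a score of 3.14, at percentile 55.0. The AKBA peak was the wider of the pair here, on the right of CDKN1A and, at 2051 against 1153 bp, on the left of CDKN2C. On the left of CDKN2A and CDKN2B the DMSO peak was slightly wider, at 802 against 787 bp. Over the whole lists the median width was 742.0 bp for AKBA and 552.5 bp for DMSO, so a wider AKBA peak is no trait of these loci.

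The sharing of peaks around the 4 windows was compared with that of the whole lists. Of the 8 nearest AKBA peaks, 1 on each side of each window, 5 overlapped a DMSO peak, and of the 8 nearest DMSO peaks 4 overlapped an AKBA peak. With a reciprocal overlap of at least 50% the numbers were 3 for AKBA and 3 for DMSO. Within 1 Mb of the windows, 8 of 21 AKBA peaks (38.1%) overlapped a DMSO peak and 13 of 18 DMSO peaks (72.2%) an AKBA peak. In the whole lists these shares were 32.2% for AKBA and 54.5% for DMSO. Of the 13 DMSO peaks, 7 belong to the domain left of CDKN2C, where 6 of them lie in 1 AKBA peak, so these peaks are not independent of each other. The shares thus show no property particular to these loci.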

How the data were processed

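H3K27me3 peak lists of 1 AKBA and 1 DMSO library of HaCaT cells were used. The submitters' processing notes name build hg19 and the tools BWA, STAR and MACS2, with no version or role. Threshold, use of the input, duplicates and filters are not stated there. Each deposited list has no header and holds chromosome, start, end, name and a score for every peak. The score deposited by the authors runs from 2.03 to 14.3 (AKBA) and from 2.00 to 18.7 (DMSO), and its scale is not stated. Coordinates were made 1-based. A peak was counted in a window from an overlap of 1 bp. Distances, covered bases and tiles of each window's width were computed with Python 3.11.15, numpy 2.4.6 and pandas 2.3.3, tested on simulated data and checked against bedtools 2.31.1. The figures were drawn with matplotlib 3.10.9. With 1 library per condition no test was made.

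The genes and windows were chosen with earlier results of these data known. All 5 genes, every peak in their windows and the nearest peak on each side were named. Other peaks within 1 Mb, among them those of the broad domain beside CDKN2C, were named after their values were seen. Promoter sequences came from RefSeq (GRCh38.p14), cut to the 250 bases before the start. No gene annotation of build hg19 was used, so peaks were not placed on genes, where in a window a gene lies is not given, and other CDK inhibitor genes and keratinocyte markers were not analysed here. Alternatives concerned the score, peak number, peak width, joining, window size, overlap and tiling.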

Additional observations from a re-analysis of the deposited data

How the results depend on the processing

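The number of windows with a peak was 0 in both lists with a score of at least 3, with the same number of peaks per list, with peaks of at least 1 kb, with peaks within 5 kb merged, and with windows widened by 20 kb or narrowed by 10 kb. Of these settings only the widening by 20 kb could have changed a 0. The others remove peaks, shrink the windows or join peaks across gaps too short to span a window. The nearest peak of all, at 21.7 kb from the CDKN2C window in the DMSO list, lay just beyond that widening. Wider windows, chosen after seeing the data, gave 0 AKBA and 1 DMSO window with a peak at 50 kb, 2 and 2 at 200 kb, and 3 and 2 at 500 kb. Distances to the nearest peak depended on which peaks were kept. With a score of at least 3 the AKBA distance at CDKN1B was 1162 kb, and the DMSO distances were 868 kb at CDKN1A and 512 kb at CDKN2C, so that DMSO was then nearer at CDKN1B and AKBA at CDKN2C. With peaks of at least 1 kb the AKBA distances were 1700 kb at CDKN2A/CDKN2B, 531 kb at CDKN1B and 509 kb at CDKN2C, and the DMSO distances 7084, 1237 and 509 kb at the same loci. Without peaks at the narrowest width, added after seeing the data, the AKBA distance at CDKN2C was 349 kb. The nearer DMSO peak at CDKN2C and the nearer AKBA peak at CDKN1B thus each rest on a peak with a score under 3. By width, AKBA stayed nearer at CDKN1B. Shares of tiles with a peak moved by over 1.5 times in these cases. With a score of at least 3 they were 8.15, 7.42 and 8.50% (AKBA) and 5.83, 5.26 and 6.13% (DMSO) at the widths for CDKN1A, CDKN1B and CDKN2C. With peaks of at least 1 kb they were 16.9% (AKBA) and 10.1% (DMSO) at 190 kb, and 6.16, 5.58 and 6.44% (AKBA) and 3.28, 2.96 and 3.48% (DMSO) at the 3 other widths. Widened windows gave 18.6% (AKBA) and 14.0% (DMSO) for CDKN1B and 14.7% (DMSO) for CDKN1A, and narrowed ones 5.55% (DMSO) for CDKN1B. Each of these changes follows from fewer peaks or from the tile width. Leaving out tiles in peak-free stretches of at least 3 Mb, added after seeing the data, gave 37.6% (AKBA) and 30.0% (DMSO) at 190 kb. With a reciprocal overlap of 50%, 3 of the 8 nearest AKBA peaks were shared. No paired analysis was possible because each condition has 1 library. Unknown depth and the absence of replicates limit every comparison.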
